A study of Mus musculus with 12 samples.

Results

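Cultures of bone marrow-derived mast cells (BMMCs) carried a label for their *Elk4* genotype, WT for wild type, HZ for heterozygous and KO for knockout. A small number of genes were read in cultures of some labels and almost not at all in others. The 7 genes described here, *Vmn2r96*, *Capn11*, *Rbfox1*, *Scara5*, *F13a1*, *Hbb-bt* and *Lyz2*, are 7 of the 16234 genes in the counts table. They were selected on their measured counts by genotype label, so their differences between labels are a description and carry no test. Stimulation within a label was not the contrast that selected them and was tested, although the stimulated libraries were in view when the genes were chosen. All 7 passed the filter on low counts that left 12208 genes for testing, each through the labels where it was high.

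The cultures came from bone marrow of C57BL/6N mice carrying a conventional knockout of *Elk4* and of wild-type littermates, of both sexes and aged 6 to 12 weeks. Cells were grown with IL-3 and SCF for 4 to 8 weeks, after which more than 80% carried CD117 and FcϵRI together. Each label was sequenced unstimulated and stimulated, with 2 libraries per group and 12 in all. Stimulated cells were loaded overnight with 0.5 µg/ml anti-DNP IgE and then given 100 ng/ml DNP-HSA for 1 h. The labels do not say whether the 2 libraries of a group came from different animals or cultures, so p-values measure only the spread between these libraries, which may be technical. The knockout allele is not limited to mast cells, and the labels tie no culture to an animal or litter.

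Mast cells are tissue-resident cells of the blood lineage that store proteases and amines in granules and release them when antigen crosslinks IgE on FcϵRI. ELK4 is an ETS-domain transcription factor of the ternary complex family, which binds DNA with serum response factor at promoters of immediate-early and other genes. None of the 7 genes is a standard mast cell gene. They code for a pheromone receptor, a protease, an RNA-binding protein, a ferritin receptor, a clotting factor subunit, a globin and an antibacterial enzyme.

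Counts on genes totalled 29697958 to 35531667 per library. Libraries of a group differed by more than sampling noise in all 6 groups (chi-square per degree of freedom of 2.96 to 5.38), so none was a copy of its partner. *Elk4* itself (NCBI Gene 13714) had 1995 to 2740 counts in the libraries labelled WT, 1883 to 3238 in those labelled HZ and 1867 to 2613 in those labelled KO. Its mean level was 74.2 ± 5.35 (SD, n = 4), 77.0 ± 14.9 and 67.2 ± 2.68 CPM in turn (counts scaled to the same library size), so the counts did not follow the labels. A deletion inside the gene need not show in such a count, and the terms WT, HZ and KO below name libraries by label. The paper reports western blotting of WT, HZ and KO BMMCs as evidence of the deletion. The cells carried their mast cell markers under every label: *Cpa3*, the granule carboxypeptidase, had 463248 to 669763 counts and *Kit*, the SCF receptor, 122690 to 178912.

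The 7 genes lie on 6 chromosomes, with *Vmn2r96* and *Capn11* both on chromosome 17. *Rbfox1* is on chromosome 16, *Scara5* on 14, *F13a1* on 13, *Lyz2* on 10 and *Hbb-bt* on 7. Sequence before the annotated start was given for 6 of them in RefSeq's annotation of GRCm38.p6, in 8 windows of 250 bases. Windows of 2 genes found in WT and of 2 genes higher in HZ and KO are shown, with the ETS core GGAA on either strand (TTCC on the strand printed) in capitals, because the targeted gene codes for an ETS factor.
Vmn2r96 upstream window, chr17:18581477-18581726, plus strand: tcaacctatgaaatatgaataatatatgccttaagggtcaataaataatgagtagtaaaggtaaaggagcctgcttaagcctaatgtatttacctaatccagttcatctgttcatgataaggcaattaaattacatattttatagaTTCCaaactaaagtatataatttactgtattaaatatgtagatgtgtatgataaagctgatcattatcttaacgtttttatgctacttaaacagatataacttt
Capn11 upstream window, chr17:45659310-45659559, minus strand: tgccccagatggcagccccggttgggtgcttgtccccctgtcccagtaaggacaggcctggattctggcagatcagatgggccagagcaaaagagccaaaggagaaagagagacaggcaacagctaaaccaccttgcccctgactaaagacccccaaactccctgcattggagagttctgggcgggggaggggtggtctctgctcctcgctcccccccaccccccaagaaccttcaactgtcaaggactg
F13a1 upstream window, chr13:37049214-37049463, minus strand: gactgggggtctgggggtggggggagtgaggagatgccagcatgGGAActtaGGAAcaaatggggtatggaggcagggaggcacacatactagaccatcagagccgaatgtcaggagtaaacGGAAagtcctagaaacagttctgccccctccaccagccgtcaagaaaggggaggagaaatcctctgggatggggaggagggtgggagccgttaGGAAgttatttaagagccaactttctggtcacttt
Lyz2 upstream window, chr10:117282273-117282522, minus strand: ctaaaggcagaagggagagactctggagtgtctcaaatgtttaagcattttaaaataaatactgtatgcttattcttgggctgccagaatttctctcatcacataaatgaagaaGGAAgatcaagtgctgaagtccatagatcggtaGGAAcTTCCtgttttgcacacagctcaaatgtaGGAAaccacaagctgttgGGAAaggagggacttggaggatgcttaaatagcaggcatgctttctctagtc

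The window of *Vmn2r96* held 1 match to the core and that of *Capn11* held 0. That of *F13a1* nearest its gene body held 4 and that of *Lyz2* 5. Among the windows not shown, those of *Rbfox1* held 7 and 5, the other of *F13a1* 3 and that of *Hbb-bt* 0. Matches thus did not follow the direction of the label difference. The core is short and stood in 93.4% of all 32851 windows of this length, with a median of 3 matches. The longer form CCGGAA, on either strand and overlapping the core, stood in 12% of all windows and in 0 of the 8 windows of these genes. The CArG box, the site of serum response factor, stood in 1.47% of all windows and also in 0 of the 8. A match here describes letters only, and the lack of one says nothing about binding elsewhere.

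*Vmn2r96* (NCBI Gene 433070) codes for a vomeronasal type 2 receptor, a class of pheromone receptors of sensory neurons in the nose. It had 951 and 932 counts in unstimulated and 730 and 687 in stimulated WT libraries. In all 4 HZ libraries and in 3 of the 4 KO libraries it had 0 counts, and the remaining library, a stimulated KO one, had 1. The labels did not overlap: every WT library lay far above every other library. In CPM, unstimulated WT cells had 27.7 ± 1.46 (SD, n = 2) and stimulated WT cells 23.8 ± 1.07. Summed over 4 libraries each, WT was at least 1121-fold higher than HZ, taken against 3 counts over the HZ group. Against the single count in KO the ratio was 3351, with an exact counting interval of 601 to 132400, and without that library, replicate 2 of stimulated KO, WT was at least 869-fold higher. Intervals of this kind cover counting error only.

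Vomeronasal receptor genes resemble each other, so the sequence of *Vmn2r96* was compared with its family in the GENCODE vM21 transcripts. Of the 2519 windows of 50 bases in its coding sequence of 2568 bases, 58.6% occurred in none of 236 other genes named Vmn2r, and 21 of these genes shared at least 1 window. Reads from the shared windows could be placed on more than 1 gene. The other vomeronasal receptor genes in the counts table numbered 25, of which 15 had at most 3 counts in every library and 2 were tested. *Vmn2r97*, the next gene on the chromosome, had 0 to 5 counts in WT and 0 in all HZ and KO libraries. *Vmn2r29* was the family member that changed by the test, with 3 to 21 counts in WT, 5 to 31 in HZ and 31 to 50 in KO. Its KO minus WT log2 difference was 1.53 ± 0.43 (SE), with an edgeR adjusted p of 0.0025, which is the opposite direction to *Vmn2r96*.

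*Capn11* (NCBI Gene 268958) codes for a calpain, a calcium-dependent cysteine protease best known from testis. It had 333 and 418 counts in unstimulated and 245 and 226 in stimulated WT libraries. In HZ it had 0 counts in 3 libraries and 1 in a stimulated one. In KO it had 1 and 0 counts unstimulated and 0 and 7 stimulated. WT again stood apart from every other library, and the 7 counts of 1 stimulated KO library were the highest value outside WT. The WT level was 10.05 and 11.95 CPM in the unstimulated libraries and 7.92 ± 0.466 CPM (SD, n = 2) in the stimulated ones. Over 4 libraries each, WT exceeded HZ by a ratio of 1246 (exact counting interval 223 to 49250) and KO by 155 (78.5 to 360). Without replicate 2 of stimulated KO the KO ratio was 965 (173 to 38160), and without replicate 1 of stimulated HZ WT was at least 310.5-fold higher than HZ. Other genes of the calpain system were not called. Of 10 tested calpain genes, small subunits and the inhibitor *Cast*, edgeR and DESeq2 each called 0 in KO minus WT (all genes 3.13% higher and 5.24% lower) and 0 in HZ minus WT (2.66% and 3.41%), while 7 and 6 had an unadjusted p below 0.05 in edgeR. The summed level of the 13 such genes in the table was 937 to 1045 CPM in WT, 944 to 1002 in HZ and 922 to 1022 in KO. *Capn1* and *Capn2*, the widely expressed calpains, had 3131 to 4847 and 3740 to 6568 counts over all 12 libraries.

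*Rbfox1* (NCBI Gene 268859) codes for an RNA-binding splicing regulator of neurons and muscle. Its counts were 187 and 182 in unstimulated and 173 and 154 in stimulated WT libraries. HZ libraries had 2 and 5 counts unstimulated and 1 and 3 stimulated. KO libraries had 2 and 5 unstimulated and 0 and 0 stimulated. Low counts thus remained in 6 of the 8 HZ and KO libraries, unlike for *Vmn2r96*. WT was at 5.42 ± 0.312 CPM (SD, n = 2) unstimulated and 5.50 ± 0.462 stimulated. Over both states WT exceeded HZ by a ratio of 64.5 (exact counting interval 35.8 to 130) and KO by 101 (48.7 to 252). Without replicate 2 of unstimulated KO the KO ratio was 257 (70.8 to 2123). *Rbfox2* had 0 to 8 counts in every library and *Rbfox3* 0, and neither was tested. In RefSeq 5 other genes overlap *Rbfox1* and 2 overlap *F13a1*. None of them is a row of the counts table, and since the strand setting of the counting is not stated, reads from such genes cannot be told apart from those of the named gene.

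**Figure D1:**
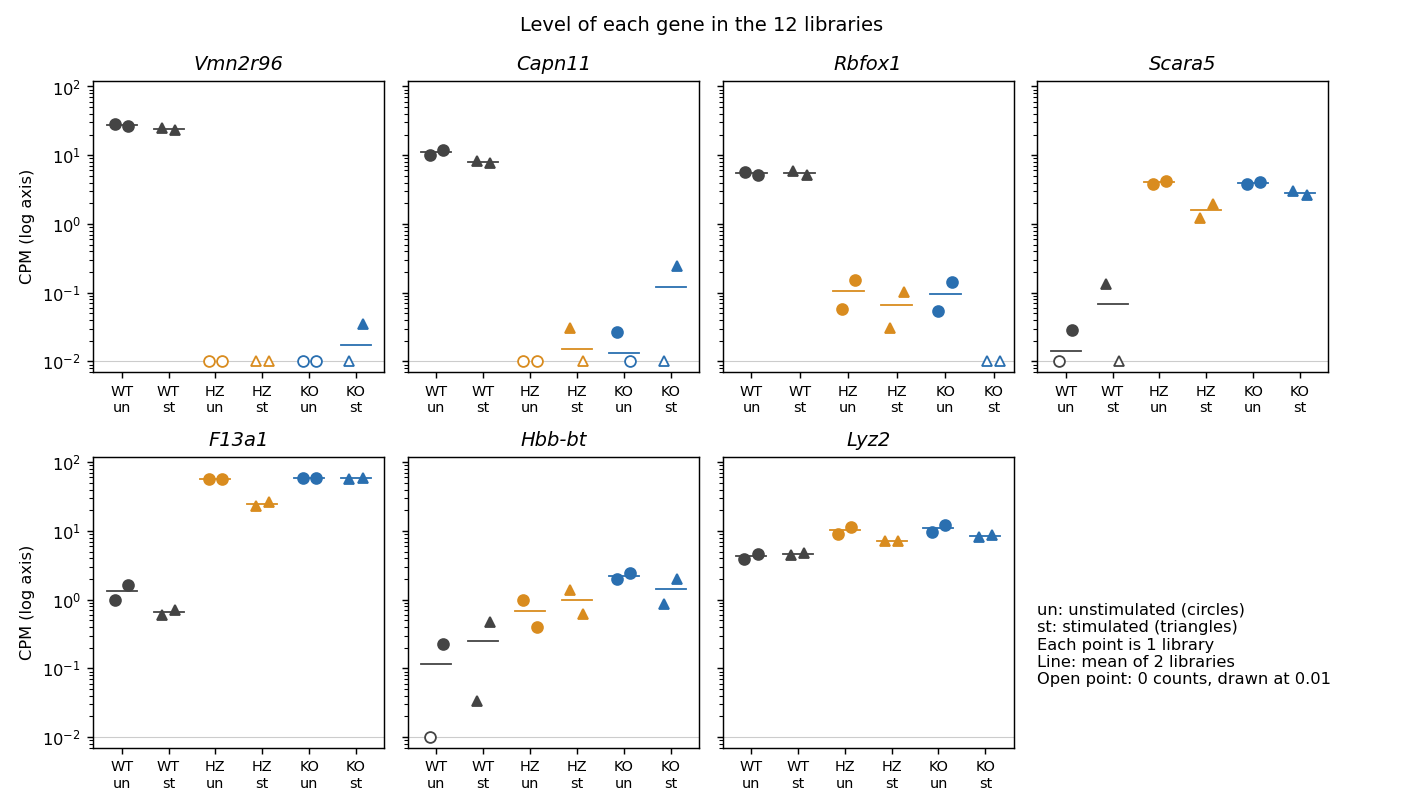
Level of the 7 genes in CPM on a log axis, with 1 point per library, circles for unstimulated and triangles for stimulated cells, and a line at the mean of the 2 libraries of a group. Open points at 0.01 are libraries with 0 counts. *Vmn2r96*, *Capn11* and *Rbfox1* are high in the 4 WT libraries, *Scara5* and *F13a1* in the 8 HZ and KO libraries, and *Hbb-bt* and *Lyz2* differ by smaller steps.

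*Scara5* (NCBI Gene 71145) codes for a class A scavenger receptor that takes up ferritin. It ran the other way. WT libraries had 0 and 1 counts unstimulated and 4 and 0 stimulated. HZ libraries had 133 and 138 unstimulated and 40 and 58 stimulated, and KO libraries had 143 and 146 unstimulated and 84 and 75 stimulated. Every HZ and KO library lay above every WT library. Unstimulated levels were 4.01 ± 0.251 CPM in HZ and 3.96 ± 0.213 in KO (SD, n = 2 each). After stimulation they were 1.59 ± 0.526 and 2.81 ± 0.292 CPM. Over both states the ratio to WT was 72.4 (exact counting interval 30.7 to 224) for HZ and 88.2 (37.5 to 273) for KO. Without replicate 1 of stimulated WT, which held 4 of the 5 WT counts, the ratios were 278 (49.5 to 11000) and 338 (60.4 to 13400).

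Among 6 other scavenger receptors tested, the KO minus WT comparison called *Stab2* higher (all genes 3.13%) and *Msr1* and *Stab1* lower (5.24%). *Msr1*, a scavenger receptor of macrophages, had 5 to 16 counts in WT and 0 in all HZ and KO libraries. *Stab1*, a receptor for modified lipoproteins, was at 1.22 ± 0.546 CPM in WT (SD, n = 4), 0.290 ± 0.219 in HZ and 0.277 ± 0.0248 in KO. Its log2 differences were -2.13 ± 0.47 (SE, edgeR adjusted p = 0.000176) for HZ minus WT and -2.12 ± 0.469 (edgeR adjusted p = 0.000154) for KO minus WT. Both are genes of low counts, and DESeq2 called *Stab1* but not *Msr1* in both comparisons. Of 9 tested genes of iron handling, the pathway that ferritin belongs to, edgeR and DESeq2 called 0 in either comparison, with 8 and 7 at an unadjusted p below 0.05 in edgeR. *Fth1*, the ferritin heavy chain, had 74014 to 77186 counts in WT, 75104 to 88235 in HZ and 83250 to 100192 in KO.

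*F13a1* (NCBI Gene 74145) codes for the catalytic A subunit of coagulation factor XIII, a transglutaminase that crosslinks fibrin and is made by platelets and macrophages. WT libraries had 33 and 58 counts unstimulated and 18 and 21 stimulated, so the gene was low but detected. HZ libraries had 1961 and 1869 unstimulated and 754 and 777 stimulated. KO libraries had 2217 and 2100 unstimulated and 1562 and 1720 stimulated. HZ and KO nearly coincided before stimulation and parted after it. Unstimulated levels were 1.33 ± 0.468 CPM in WT, 56.6 ± 0.148 in HZ and 59.2 ± 0.0444 in KO (SD, n = 2 each). Stimulated levels were 0.656 ± 0.0701, 24.6 ± 2.34 and 58.0 ± 2.56 CPM. The KO to HZ ratio was 1.05 (exact counting interval 1.00 to 1.09) unstimulated and 2.36 (2.22 to 2.51) stimulated, and over both states the ratio to WT was 40.5 (34.0 to 48.5) for HZ and 57.6 (48.4 to 69.0) for KO.

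Of 6 other tested clotting factor and transglutaminase genes, 2 were higher in HZ (all genes 2.66%) and 1 in KO (3.13%) by the test. *Tgm2*, the ubiquitous tissue transglutaminase, had 1517 to 2328 counts in WT, 5607 to 9381 in HZ and 5242 to 11626 in KO. Its log2 difference was 1.90 ± 0.0283 for HZ minus WT (SE, edgeR adjusted p = 1.65e-43) and 2.03 ± 0.0283 for KO minus WT (edgeR adjusted p = 1.1e-44). Its counts went from 9381 and 8816 to 6015 and 5607 on stimulation in HZ and from 5515 and 5242 to 11415 and 11626 in KO. *Tgm5* was called in HZ by edgeR only, at 7 to 46 counts against 3 to 8 in WT, and lost the call without any 1 of 9 libraries (edgeR adjusted p of 0.0512 to 0.261). *F13b*, the carrier subunit of factor XIII, had 0 or 1 count in every library and was not tested.

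*Hbb-bt* (NCBI Gene 101488143) codes for an adult beta globin of red blood cells. Its counts were 0 and 8 in unstimulated WT, 1 and 14 in stimulated WT, 34 and 13 in unstimulated HZ, 45 and 18 in stimulated HZ, 76 and 87 in unstimulated KO and 24 and 58 in stimulated KO. The highest WT library (14 counts, 0.470 CPM) lay above the lowest HZ library (13 counts, 0.394 CPM), so the labels overlapped for this gene. Replicates lay apart in some groups, as with 1 and 14 counts in stimulated WT, and close together in unstimulated KO. Replicate 2 was the higher one in both states of WT and of KO, and replicate 1 in both states of HZ. The 4 libraries of a label may thus not be independent, which was not tested. Levels over both states were 0.183 ± 0.216 CPM in WT, 0.838 ± 0.430 in HZ and 1.84 ± 0.682 in KO (SD, n = 4 each), a graded order rather than an on and off one. The ratio to WT was 4.69 (exact counting interval 2.97 to 7.71) for HZ and 10.5 (6.83 to 16.9) for KO, and KO to HZ was 2.24 (1.78 to 2.83). These intervals cover counting error only. Without replicate 2 of stimulated WT, which held 14 of the 23 WT counts, the ratios to WT were 9.19 (4.67 to 20.6) and 20.5 (10.7 to 45.5).

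The adult beta globins are near-identical copies, and the 441 coding bases of *Hbb-bt* differ from those of *Hbb-bs* in 1 base in GENCODE vM21. The last 60 coding bases before the stop codon hold that base, shown in capitals, to let the closeness of the pair be seen.
Hbb-bt, coding bases 382 to 441: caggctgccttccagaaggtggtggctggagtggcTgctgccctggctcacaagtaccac
Hbb-bs, coding bases 382 to 441: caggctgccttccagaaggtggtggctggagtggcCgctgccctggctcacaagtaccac

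Over the whole *Hbb-bt* transcript of 703 bases, 41.7% of windows of 50 bases did not occur in the longest *Hbb-bs* transcript, so the split of reads between both genes is uncertain. *Hbb-bs* had 0 counts in 4 of 4 WT and 4 of 4 KO libraries and at most 2 in HZ. *Hbb-y*, the embryonic beta-like globin 2 places along the cluster, had 2 and 6 counts in unstimulated and 4 and 5 in stimulated WT libraries. HZ libraries had 54 and 33 unstimulated and 16 and 26 stimulated. KO libraries had 31 and 19 unstimulated and 14 and 38 stimulated. Every HZ and KO library lay above every WT library for *Hbb-y*, at log2 differences of 2.77 ± 0.512 for HZ minus WT (SE, edgeR adjusted p = 1.14e-05) and 2.54 ± 0.517 for KO minus WT (edgeR adjusted p = 4.79e-05). *Hba-a1*, an alpha globin, did not pass, with 0 to 13 counts in WT and 0 to 8 in both other labels.

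*Lyz2* (NCBI Gene 17105) codes for lysozyme M, the antibacterial enzyme of macrophages and neutrophils. It had 131 and 160 counts in unstimulated and 131 and 143 in stimulated WT libraries. HZ libraries had 316 and 375 unstimulated and 235 and 209 stimulated, and KO libraries 362 and 432 unstimulated and 225 and 249 stimulated. All 12 libraries read the gene, and the labels WT against HZ and KO did not overlap in CPM. Levels were 4.26 ± 0.438 CPM in unstimulated WT, 10.2 ± 1.61 in unstimulated HZ and 10.9 ± 1.78 in unstimulated KO (SD, n = 2 each). Over both states the ratio to WT was 1.97 (exact counting interval 1.78 to 2.18) for HZ and 2.21 (2.00 to 2.45) for KO, the smallest of the 7.

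*Lyz1*, the lysozyme of Paneth cells, is the neighbour of *Lyz2* on chromosome 10 and has a coding sequence of the same 444 bases that differs in 22 bases. A stretch of 60 coding bases with 9 of these differences in capitals lets both copies be compared.
Lyz2, coding bases 61 to 120: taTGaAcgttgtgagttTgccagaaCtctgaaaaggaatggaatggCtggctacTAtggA
Lyz1, coding bases 61 to 120: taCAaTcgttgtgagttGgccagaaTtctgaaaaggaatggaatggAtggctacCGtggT

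Of the windows of 50 bases in the *Lyz2* transcript, 84.6% did not occur in that of *Lyz1*. *Lyz1* had 0 counts in every HZ and KO library and at most 1 in WT.

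Levels of different genes can be compared per length, in the deposited FPKM values. In unstimulated WT cells *Vmn2r96* led the 7 with 10.5 ± 0.512 FPKM (SD, n = 2). *Lyz2* at 4.51 ± 0.482 and *Capn11* at 4.15 ± 0.523 came next and did not differ beyond their spread. *Rbfox1* followed at 0.682 ± 0.0365, then *F13a1* at 0.305 ± 0.109 and *Hbb-bt* at 0.204 ± 0.288, the last 2 within their spread, and *Scara5* at 0.00285 ± 0.00403. In unstimulated KO cells the order was *F13a1* at 13.4 ± 0.0142, *Lyz2* at 11.4 ± 1.84, *Hbb-bt* at 3.92 ± 0.519 and *Scara5* at 0.776 ± 0.0403 FPKM. *Rbfox1* stood at 0.0120 ± 0.00765 FPKM there, overlapping *Capn11* at 0.00496 ± 0.00702, and *Vmn2r96* was listed at 0 in both libraries.

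The term on or off could be checked on counts, with at least 30 counts in every library of a label as on and at most 10 in every library as off. By these limits 3 of the 7 genes, *Vmn2r96*, *Capn11* and *Rbfox1*, were on in WT and off in HZ and KO, as were 10 of all 16234 genes (0.0616%). *Scara5* was off in WT and on in HZ and KO, as were 5 of all genes (0.0308%). The remaining 3 did not meet the limits. *F13a1* had up to 58 counts in WT, *Hbb-bt* had fewer than 30 counts in libraries of every label, and *Lyz2* was on throughout. Since the rule used these counts, the shares describe how rare the pattern was and test nothing. Another 11 genes met the limits: *Mctp2*, *B4galt6*, *Wfikkn2*, *Selenbp2*, *Hs3st3a1*, *Dclk2* and *Bmp1* with *Vmn2r96*, and *Tcf4*, *Twist2*, *Tmem176a* and *Rasef* with *Scara5*. All were named after their values were seen. Their lowest count where on was 30 to 73, below the 154 of *Rbfox1* but on both sides of the 40 of *Scara5*. Genes set apart in KO alone or in HZ alone, either way, numbered 0 at these limits, so wherever a gene was on or off in this sense, HZ and KO were alike and WT differed.

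**Figure D2:**
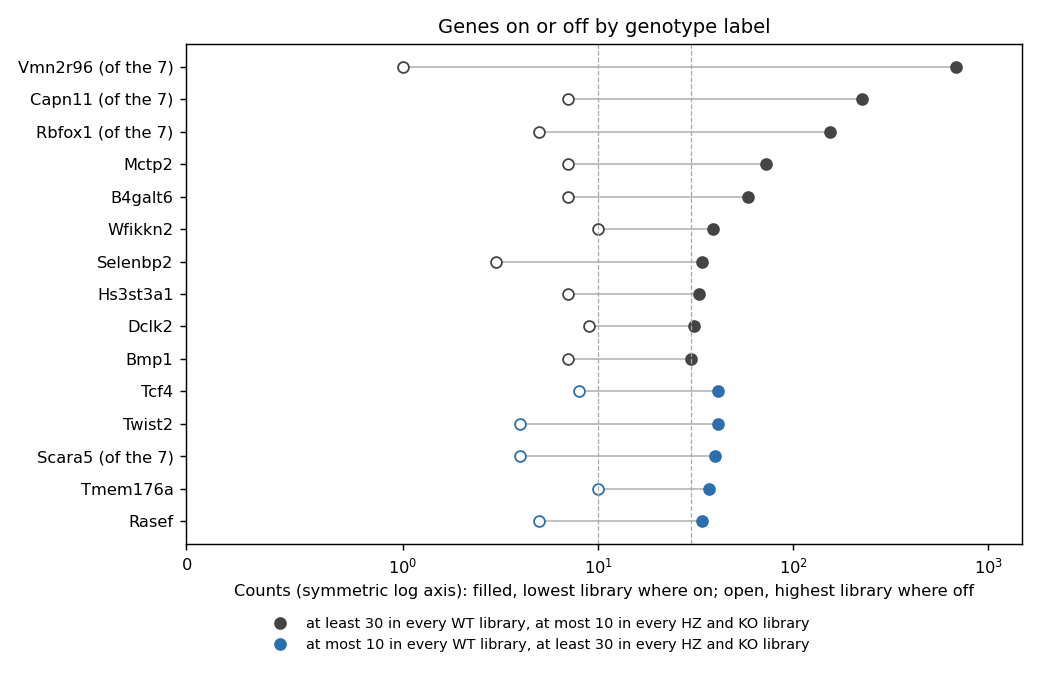
The 15 genes that were on or off by genotype label, with filled points for the lowest library among those where the gene was on and open points for the highest library among those where it was off, in counts on a symmetric log axis. Dashed lines mark 10 and 30 counts. *Vmn2r96* spans 1 to 687 counts, and no gene separates KO from HZ.

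Without limits on counts, 3 of the 7 genes had all 4 WT libraries above the 8 HZ and KO libraries in CPM, a pattern shown by 746 of 12208 genes tested (6.11%). *Scara5*, *F13a1* and *Lyz2* had all 4 WT libraries below the others, which 732 genes did (6%). These counts too were fixed by the choice of genes. Over the 12 libraries, log2(CPM + 1) of *Vmn2r96* and *Rbfox1* had a Pearson r of 0.998 and that of *Vmn2r96* and *Capn11* 0.997. *Scara5* and *F13a1* had an r of 0.975, *Vmn2r96* and *F13a1* one of -0.977, and *Hbb-bt* had the weakest values, of 0.718 to 0.771 in size. Such values describe points that share labels and libraries.

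Among 444 tested genes whose group means of log2(CPM + 1) spanned at least 2, the genes most like each of the 7 over the 12 libraries were named by their r, again as a description. *Cadps2*, which codes for a protein of vesicle priming, was the closest to *Vmn2r96* (r = 0.995), *Capn11* (0.989) and *Rbfox1* (0.993). It had 708 to 920 counts in WT, 40 to 70 in HZ and 35 to 85 in KO. *Tgtp1*, an interferon-induced GTPase gene, came next for all 3 genes (0.989 to 0.991), and *Nmnat1*, *LOC115490200* and *Mctp2* filled the third places with 0.991, 0.985 and 0.990. *Itgb3*, the integrin beta chain of the fibrinogen receptor, was closest to *F13a1* (0.996) at 206 to 353 counts in WT, 1140 to 2618 in HZ and 2132 to 3598 in KO, followed by *Muc13* (0.996) and *Tie1* (0.994). *Tek*, an angiopoietin receptor gene, led for *Scara5* (0.986) and for *Lyz2* (0.961), with *Nrgn* (0.985) and *Muc13* (0.979) next for *Scara5* and *Syn2* (0.953) and *Itgb3* (0.950) for *Lyz2*. *Hbb-bt* had lower values, with *Tubb3* (0.903), *Mrgprb1* (0.868) and *Galc* (0.868). These 3 genes also had a higher level in KO than in HZ, such as 16.4 ± 1.76 against 3.66 ± 1.90 CPM for *Galc* (SD, n = 4 each).

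The response to stimulation was read for genes with more than 12 counts over the 4 libraries of a label. In WT, edgeR called 1 of 6 such genes lower (all genes 3.06%) and 0 higher (3.71%), in HZ 2 of 4 lower (7.28%) and 0 higher (7.02%), and in KO 0 of 4 lower (2.88%) and 0 higher (3.73%). DESeq2 made the same number of calls each time. At an unadjusted p below 0.05 edgeR had 0 higher under each label and 1 lower in KO. *F13a1* fell in HZ by 1.20 ± 0.0794 on the log2 scale (SE, edgeR adjusted p = 4.23e-18), with both stimulated libraries below both unstimulated ones. In WT it fell by 1.02 ± 0.28 (edgeR adjusted p = 0.0023) from far fewer counts. That call was lost without replicate 2 of unstimulated WT, at -0.59 (edgeR adjusted p = 0.188), and without replicate 1 of stimulated WT, at -0.92, below the fold threshold. In KO its log2 fold change was -0.03 ± 0.074 (95% interval -0.179 to 0.12, edgeR adjusted p = 0.792). The difference of the *F13a1* response between HZ and KO was not tested, since stimulated libraries of both labels were in view when the genes were chosen.

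*Scara5* fell in HZ by 1.34 ± 0.327 on the log2 scale (SE, edgeR adjusted p = 0.000389), and leaving out any 1 library kept that call. In KO its value was -0.49 ± 0.31 (95% interval -1.12 to 0.13, edgeR adjusted p = 0.211). *Lyz2* had -0.52 ± 0.154 in HZ (edgeR adjusted p = 0.00292) and -0.38 ± 0.152 in KO (edgeR adjusted p = 0.0405), both short of the fold threshold of 1 on the log2 scale. In WT *Lyz2* stood at 0.11 ± 0.177 (edgeR adjusted p = 0.65), a value that turned negative when libraries were scaled by their totals.

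The 3 genes on in WT did not pass the test there. *Vmn2r96* had a WT log2 fold change of -0.22 ± 0.128 (SE, 95% interval -0.474 to 0.0425, edgeR adjusted p = 0.174), *Capn11* one of -0.47 ± 0.236 (edgeR adjusted p = 0.0995) and *Rbfox1* one of 0.02 ± 0.299 (edgeR adjusted p = 0.965, negative with scaling by library totals). Below that limit edgeR called *Rbfox1* in KO, at 7 counts in the unstimulated and 0 in the stimulated libraries (edgeR adjusted p = 0.0369), which gives no usable fold and was lost without replicate 2 of unstimulated KO or without either stimulated KO library. *Hbb-bt* passed under none of the labels, with 1.08 ± 0.947 in WT, 0.53 ± 0.601 in HZ and -0.63 ± 0.538 in KO (edgeR adjusted p of 0.376, 0.453 and 0.374).

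**Figure D3:**
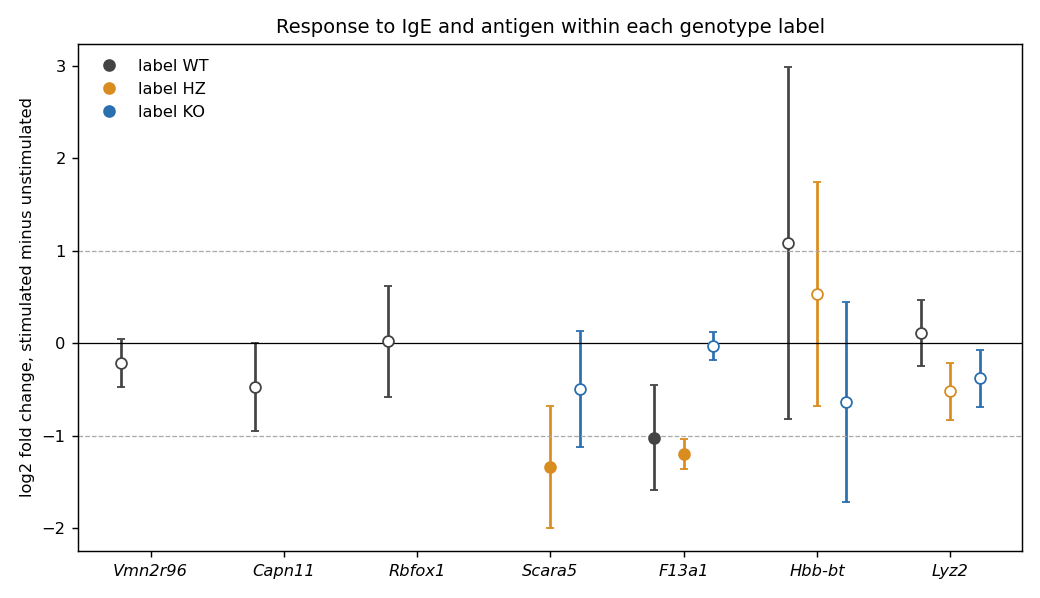
Log2 fold change on stimulation for each gene and label with more than 12 counts in its 4 libraries, with 95% intervals, filled points for those called by edgeR and dashed lines at the fold threshold. *F13a1* sits at -1.02 in WT, -1.20 in HZ and -0.03 in KO, and *Scara5* at -1.34 in HZ.

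To see whether whole regions differed, the 3 nearest genes of the counts table on each side of each gene were tested, 42 in all, of which 30 passed the filter. Higher calls numbered 2 in KO minus WT (3.13% of all genes) and 2 in HZ minus WT (2.66%), and lower calls 1 (5.24%) and 0 (3.41%). DESeq2 also called 0 lower in HZ minus WT, where 10 neighbours had an unadjusted p below 0.05 in edgeR. In KO minus HZ, 0 were higher (0.614%) and 0 lower (0.975%) by both tools, with 6 and 5 at an unadjusted p below 0.05 in edgeR. The median log2 difference over the neighbours was 0.07 in KO minus WT and -0.00163 in HZ minus WT, beside 0.02 and 0.00414 over all genes.

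*Nrn1*, which codes for neuritin, a membrane-anchored growth protein of neurons, lies next to *F13a1*. It had 28 and 22 counts in unstimulated WT, 19 and 27 in stimulated WT, 540 and 493 in unstimulated HZ, 158 and 161 in stimulated HZ, 292 and 308 in unstimulated KO and 227 and 187 in stimulated KO. Its log2 differences were 3.55 ± 0.162 for HZ minus WT (SE, edgeR adjusted p = 8.59e-24) and 3.36 ± 0.162 for KO minus WT (edgeR adjusted p = 5.19e-23). The other higher call was *Hbb-y* beside *Hbb-bt*. *Slc29a1*, a nucleoside transporter gene next to *Capn11*, was the lower one, at 70.4 ± 2.75 CPM in WT, 44.7 ± 6.96 in HZ and 33.3 ± 2.37 in KO (SD, n = 4 each), with a KO minus WT log2 difference of -1.08 ± 0.0446 (edgeR adjusted p = 1.14e-25). Around *Rbfox1*, *Scara5*, *Vmn2r96* and *Lyz2* no tested neighbour was called in KO minus WT or HZ minus WT by edgeR or DESeq2. For *Vmn2r96* the tested neighbours were only *Lnpep* and *Spaca6*, both on the same side. *Vmn2r97*, *Vmn2r99* and *Vmn2r100* on its other side did not pass the filter, so that side was not tested.

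**Figure D4:**
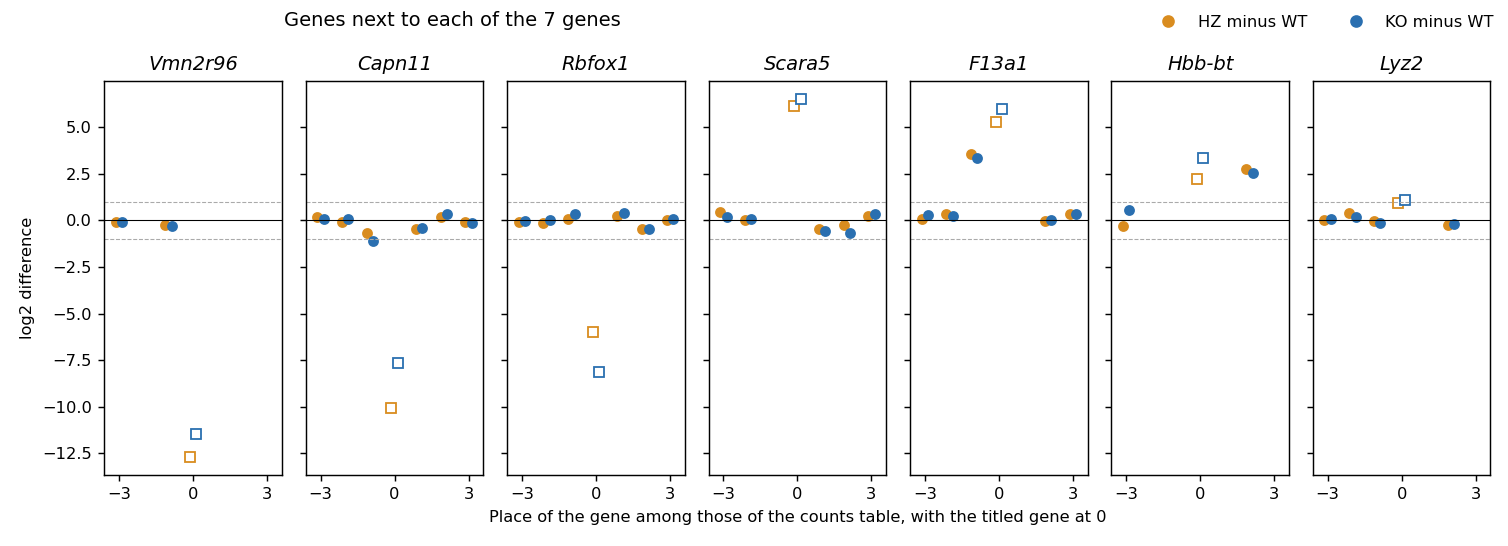
Log2 difference between labels for the tested genes next to each of the 7 genes (filled points) and for the gene itself (open squares), by place along the chromosome, with dashed lines at the fold threshold. The squares of *Vmn2r96*, *Capn11* and *Rbfox1* depend on the prior count, since HZ and KO had almost no counts, and those of *Scara5* do so since WT had almost none. *Nrn1* at 3.55 and 3.36 beside *F13a1* and *Hbb-y* at 2.77 and 2.54 beside *Hbb-bt* stand clear of the line.

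Several of the 7 genes are used as markers of other blood cells, so the lists of those cells were read beside them. In bulk RNA, fewer cells of a type and less RNA per cell cannot be told apart. *Lyz2* and *F13a1* are macrophage and monocyte genes, and of 10 other such genes tested edgeR and DESeq2 called 0 higher and 3 lower, *Csf1r*, *Cx3cr1* and *Ctss*, in both HZ minus WT (all genes 2.66% higher and 3.41% lower) and KO minus WT (3.13% and 5.24%), with 2 at an unadjusted p below 0.05 on the higher side each time in edgeR. The summed level of the 17 such genes in the table, tested or not, was 200.0 to 212.5 CPM in WT, 191.7 to 198.9 in HZ and 156.6 to 213.1 in KO. *Cx3cr1*, the fractalkine receptor, was at 98.3 ± 25.0 CPM in WT, 48.3 ± 16.2 in HZ and 42.4 ± 8.30 in KO (SD, n = 4 each). The *Csf1r* calls rested on WT, being lost without replicate 1 of unstimulated WT (edgeR adjusted p = 0.411 for HZ minus WT and 0.469 for KO minus WT) or of stimulated WT (0.0991 and 0.135), and in KO minus WT also without replicate 1 of unstimulated KO (0.0556). That of *Ctss* in HZ was lost without replicate 1 of unstimulated HZ (0.0568). *Vcan* went the way of *Lyz2* and *F13a1*, short of the fold threshold. Its log2 differences were 0.98 ± 0.0384 for HZ minus WT (SE, edgeR adjusted p = 2.04e-26) and 0.68 ± 0.039 for KO minus WT (edgeR adjusted p = 3.75e-20). *Adgre1* stood at 0.41 ± 0.14 in HZ minus WT (edgeR adjusted p = 0.0143). *Cd68* stood at 0.11 ± 0.0478 in KO minus WT (edgeR adjusted p = 0.0509) but at -0.37 ± 0.0495 in HZ minus WT (edgeR adjusted p = 1.93e-08). *C1qa* and *Mrc1*, genes of mature macrophages, had at most 4 counts and 1 count in any library.

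For *Hbb-bt*, 4 of the 9 other red cell genes in the table were tested. *Car2*, carbonic anhydrase 2, was higher in both labels, at 1.41 ± 0.741 CPM in WT, 5.04 ± 1.26 in HZ and 7.28 ± 0.479 in KO (SD, n = 4 each), with log2 differences of 1.95 ± 0.169 and 2.51 ± 0.164 (SE, edgeR adjusted p = 8.23e-14 and 4.37e-18). *Klf1*, the red cell transcription factor gene, was lower in HZ, at 0 to 5 counts against 4 to 15 in WT, a call lost without replicate 1 of unstimulated WT (edgeR adjusted p = 0.172), replicate 1 of unstimulated HZ (0.0525) or replicate 2 of stimulated HZ (0.0736). *Epor*, the erythropoietin receptor gene, had a KO minus WT log2 difference of -0.93 ± 0.191 (SE, edgeR adjusted p = 5.31e-05), short of the fold threshold, and *Hba-a1* one of -2.16 ± 1.07 (edgeR adjusted p = 0.0857). The median over the 4 genes was -0.72 in both comparisons, beside 0.02 and 0.00414 over all genes. The summed level of the list was 4.09 to 6.13 CPM in WT, 5.72 to 12.4 in HZ and 8.79 to 10.2 in KO. *Rhag* had 0 counts in every library and *Alas2* at most 1, which are defining genes of red cells.

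Neutrophil granule genes were mostly unread, and 3 of 10 listed were tested. EdgeR called 2 lower in KO minus WT (all genes 5.24%) and 1 lower in HZ minus WT (3.41%). *Ctsg*, cathepsin G, stood out with 9940 to 10750 counts in WT, 1447 to 1717 in HZ and 649 to 782 in KO, log2 differences of -2.75 ± 0.0335 and -3.83 ± 0.037 (SE, edgeR adjusted p = 3.5e-47 and 5.05e-51). *Mmp8* was lower in KO, at 5 to 16 counts against 17 to 23, and lost the call without any 1 of 7 libraries (edgeR adjusted p of 0.0506 to 0.123). *Ltf* had 0 counts throughout, and *S100a8*, *S100a9* and *Lcn2* at most 2. Of 5 tested platelet genes *Gp9* alone was called, higher in KO (all genes 3.13%) by edgeR and not by DESeq2. It had 5 to 38 counts against 3 to 11 in WT, and without any 1 of 5 libraries the call was lost (edgeR adjusted p of 0.0541 to 0.365). *Pf4*, the platelet chemokine gene, had at most 4 counts. Besides *Gp9*, the tested platelet genes were well read under every label. *Itga2b* had 45383 to 83815 counts and *Vwf* 14497 to 18378, while *Gp1ba* had 9851 to 15151 and *Gp5* 1360 to 4296. The part of such cells in the levels of the 7 genes was not tested.

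The remaining lists held few tested genes or few calls. Over all genes, 3.13% were called higher and 5.24% lower in KO minus WT, and 2.66% and 3.41% in HZ minus WT. *Itgax*, an integrin gene of dendritic cells and the 1 tested gene of that list, was lower in HZ and KO. It had 43 to 48 and 22 to 69 counts against 128 to 251 in WT. Its log2 differences were -1.97 ± 0.199 for HZ minus WT (SE, edgeR adjusted p = 8.06e-12) and -2.09 ± 0.202 for KO minus WT (edgeR adjusted p = 2.06e-12). Genes of B cells, T cells and stroma did not reach the filter, at summed levels of at most 0.431, 0.0604 and 0.282 CPM. *Siglecf*, of eosinophils, was lower in KO at 3 to 64 counts against 20 to 106, and *Itga2*, of basophils, was lower in HZ by both tools and in KO by edgeR only, at 0 to 6 and 0 to 7 counts against 5 to 16 in WT. The *Itga2* call was lost without any 1 of 4 libraries in HZ minus WT (edgeR adjusted p of 0.0571 to 0.0806) and without any 1 of 10 in KO minus WT (0.0512 to 0.194). Of 13 mast cell genes tested, *Hdc*, the histamine-forming enzyme, was lower in KO at a log2 difference of -2.38 ± 0.031 (SE, edgeR adjusted p = 8.62e-46), and *Mcpt4*, a granule chymase, was higher in HZ at 1.16 ± 0.057 (edgeR adjusted p = 1.63e-22). The other 11 were called in neither comparison, and the median over the list was 0.01 in KO minus WT and 0.07 in HZ minus WT.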

How the data were processed

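RNA of 12 BMMC libraries was sequenced on an Illumina HiSeq. The authors deposited raw read counts per gene, without normalization, and FPKM values, scaled by gene length and library total. The submitters' processing notes name fastp, HISAT2, HTSeq and the build GRCm39, without versions or strand setting. The reference used here was GRCm38.p6, so it gave sequences and the order of genes only, although the rule for neighbours had assumed the build of the files. Counts were fitted in R 4.3.3 with edgeR 4.0.16 (filterByExpr, TMM factors of 0.902 to 1.12, quasi-likelihood test, 1 mean for each of 6 groups, 6 residual and 38.9 prior degrees of freedom, prior count 0.125). P-values were two-sided with Benjamini-Hochberg adjustment over 12208 genes, and a gene was called at an adjusted p under 0.05 where its log2 change was 1 or more either way. Label comparisons averaged both states. CPM used TMM. Ratios had exact binomial intervals at 95%, and a group of 0 counts was set to 3 counts. The tests were checked on simulated data.

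The 7 genes, gene lists and tests were chosen with earlier results of these data known, and the limits of 10 and 30 counts after the values were seen. Genes named by rule were the 7, their 3 neighbours on each side, up to 4 per list, the 3 most alike by Pearson r, and *Elk4*. Further listed genes were named after their values were seen. Listed genes without a row in the table were not analysed here. DESeq2 1.42.0, its size factors, library totals, no filter, a replicate block and leaving out each library were the alternatives. The biological coefficient of variation was 4.01%.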

Additional observations from a re-analysis of the deposited data

How the results depend on the processing

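With 2 libraries per group, genes of few counts decided little. Scaling by library totals shifted the median stimulation log2 fold change of all genes to -0.321 in WT, -0.237 in HZ and -0.295 in KO (-0.0132, -0.00483 and -0.00675 with TMM), and the genes called lower to 848, 1351 and 721 (373, 889 and 352 with TMM). Relative to TMM, the WT value of *Rbfox1* then turned to -0.29 and that of *Lyz2* to -0.20, by construction of the scaling. DESeq2, its size factors in edgeR and no filter on low counts changed no call and no direction of a stimulation value of the 7 genes, and moved the counts of genes called by less than 1.5 times. Replicate differences correlated little between states (r of -0.0173 in WT, 0.101 in HZ and 0.0105 in KO). Such values cannot settle whether libraries of the same number in both states came from the same culture. The replicate block, a term shared by all labels, changed no call, with *F13a1* at -1.02 in WT and -1.20 in HZ.

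Leaving out 1 library at a time, the stimulation value of *F13a1* ranged from -1.33 to -0.59 in WT and from -0.0764 to 0.0153 in KO, the positive value without replicate 1 of stimulated KO. *Rbfox1* ranged from -0.067 to 0.10 in WT, negative without replicate 2 of unstimulated WT (-0.0256) and without replicate 1 of stimulated WT (-0.067), and from -5.20 to -3.87 in KO. *Hbb-bt* ranged from -1.69 (without replicate 2 of stimulated WT) to 6.05 (without replicate 2 of unstimulated WT, edgeR adjusted p = 0.0369) in WT and from -0.18 (without replicate 1 of stimulated HZ) to 1.33 in HZ. The cause was not tested.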
